A study of Mus musculus with 12 samples.

Results

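Acetylated lysine 27 of histone H3 (H3K27ac) was set against monomethylated lysine 4 of histone H3 (H3K4me1) in wild type (WT) cKit+ bone marrow cells, the stem and progenitor fraction that carries the receptor Kit. The members were 4 of the 12 chromatin immunoprecipitation (ChIP-seq) libraries of the series, 2 per mark, each deposited as a list of MACS2 peaks. Overlapping or touching peaks of the 2 libraries of a mark were merged, and a merged region was kept if both libraries had a peak in it. This kept 25955 of 42633 merged H3K27ac regions and 64696 of 133302 merged H3K4me1 regions.

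All mice were C57BL/6. The cells were sorted from bone marrow by FACS, and all antibodies came from Diagenode. The other 8 libraries were 4 of the same 2 marks in cells of Phf6R274XTg mice (Tg) and 4 of trimethylated lysine 4 (H3K4me3) in both genotypes. They are used below only as readouts that played no part in choosing the regions. Each deposited list is called a library here, and the labels do not say whether replicates were separate animals, so every p-value measures the spread between these samples only.

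H3K27ac is placed by the acetyltransferases p300 and CBP and is found at active promoters and active enhancers. H3K4me1 is placed at enhancers mainly by the MLL3 and MLL4 methyltransferases, also where an enhancer is poised and not yet active, and on the shoulders of active promoters. At the promoter itself H3K4 is usually trimethylated. An enhancer with H3K4me1 and without H3K27ac is commonly called primed or poised.

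The different ways in which the marks meet at a gene start can be seen at single promoters. The windows below run from 250 bases before the annotated start to 50 bases from it on, come from RefSeq on build GRCm38.p6 (mm10), read 5′ to 3′ on the strand of the gene, and have every CpG in capitals. They were chosen after the values were seen, as one example of each pattern. The window of Zfp984, a zinc finger gene on the minus strand (chr4:147809739-147810038), was covered over all 300 bases by H3K27ac in both libraries, and H3K4me1 had no peak within 1.5 kb of the start in either. That of Rps6, a ribosomal protein gene on the minus strand (chr4:86857318-86857617), and that of Camp, the gene of the neutrophil granule peptide cathelicidin, also on the minus strand (chr9:109849407-109849706), were likewise covered by H3K27ac alone, but both had H3K4me1 within 1.5 kb of the start. The window of Elfn2 on the minus strand (chr15:78718722-78719021) was covered by H3K4me1 alone, as was that of Gfi1b, which encodes a transcriptional repressor needed in red cell and platelet precursors (minus strand, chr2:28621933-28622232). All 5 windows overlapped an H3K4me3 peak in all 4 H3K4me3 libraries. Whether reads at Zfp984, 1 of several zinc finger genes on chromosome 4 named below, map to more than 1 copy was not tested.
Zfp984: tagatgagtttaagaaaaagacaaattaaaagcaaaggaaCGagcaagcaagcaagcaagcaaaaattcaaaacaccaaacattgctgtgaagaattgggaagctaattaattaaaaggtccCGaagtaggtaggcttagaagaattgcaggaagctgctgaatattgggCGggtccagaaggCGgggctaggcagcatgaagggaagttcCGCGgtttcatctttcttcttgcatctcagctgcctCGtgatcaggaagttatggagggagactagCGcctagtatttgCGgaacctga
Rps6: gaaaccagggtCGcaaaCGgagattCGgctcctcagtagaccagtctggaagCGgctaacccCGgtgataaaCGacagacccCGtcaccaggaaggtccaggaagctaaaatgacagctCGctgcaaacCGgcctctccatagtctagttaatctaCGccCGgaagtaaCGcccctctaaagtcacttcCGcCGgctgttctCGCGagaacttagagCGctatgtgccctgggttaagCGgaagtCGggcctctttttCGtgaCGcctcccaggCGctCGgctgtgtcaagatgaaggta
Camp: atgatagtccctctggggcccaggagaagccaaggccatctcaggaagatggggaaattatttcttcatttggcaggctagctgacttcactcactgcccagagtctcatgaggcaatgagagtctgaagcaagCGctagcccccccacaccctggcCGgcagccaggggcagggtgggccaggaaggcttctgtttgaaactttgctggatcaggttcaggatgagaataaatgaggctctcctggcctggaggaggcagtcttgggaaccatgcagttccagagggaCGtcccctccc
Elfn2: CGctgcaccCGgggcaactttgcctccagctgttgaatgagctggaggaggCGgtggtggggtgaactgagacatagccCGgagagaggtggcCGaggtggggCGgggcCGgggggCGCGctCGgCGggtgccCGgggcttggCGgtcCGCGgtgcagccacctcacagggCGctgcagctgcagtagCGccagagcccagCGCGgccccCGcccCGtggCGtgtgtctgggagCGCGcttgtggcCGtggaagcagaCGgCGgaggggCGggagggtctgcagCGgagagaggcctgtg
Gfi1b: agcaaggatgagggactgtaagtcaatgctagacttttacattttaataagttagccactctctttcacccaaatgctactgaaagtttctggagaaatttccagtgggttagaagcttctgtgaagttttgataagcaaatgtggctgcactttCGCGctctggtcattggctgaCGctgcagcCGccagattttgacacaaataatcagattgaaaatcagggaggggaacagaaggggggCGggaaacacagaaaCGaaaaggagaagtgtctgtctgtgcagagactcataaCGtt
These windows held 9 CpGs at Zfp984, 23 at Rps6, 3 at Camp, 29 at Elfn2 and 7 at Gfi1b. CpG-poor and CpG-rich windows were thus found with either mark. Within 1.5 kb of the start of Rps6, H3K27ac covered 2233 and 1876 bp and H3K4me1 563 and 1197 bp. Around the start of Camp, H3K27ac covered all 3000 bp in both libraries, and H3K4me1 covered 326 and 1184 bp. Around the start of Gfi1b, H3K27ac covered 0 and 0 bp, and H3K4me1 covered 1161 and 969 bp.

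H3K27ac had fewer and wider peaks, and more of them lay close to gene ends. The H3K27ac libraries held 42124 and 31257 peaks, and the H3K4me1 libraries 100316 and 130348. The median peak was 717 and 852 bp wide in H3K27ac and 482 and 584 bp wide in H3K4me1. Peaks covered 45.7 and 36.6 Mb in H3K27ac, against 66.3 and 119.7 Mb in H3K4me1. Of the H3K27ac peaks 25.5% and 31.8% lay at most 1 kb from an end (start or termination) of a protein-coding gene, against 17.1% and 17.8% of the H3K4me1 peaks. Farther inside genes lay 45.8% and 39.4% of the H3K27ac peaks and 55.0% and 52.5% of the H3K4me1 peaks. The libraries of the 2 marks did not overlap in any of these values, but the share outside genes was alike, at 28.8% and 28.7% in H3K27ac and 27.8% and 29.7% in H3K4me1. In two-sided exact permutation tests each of the non-overlapping measures gave p = 0.333, the smallest p that 2 against 2 libraries allow. Read depth is unknown, since the lists hold no counts, and the difference in width turned round when only the 30000 strongest peaks of each list were kept (median difference −199.5 bp, against 251.5 bp with all peaks).

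Most H3K27ac lay within H3K4me1, and most H3K4me1 lay without H3K27ac. Of the H3K27ac regions 87.5% overlapped an H3K4me1 region, against 43.8% of the H3K4me1 regions that overlapped an H3K27ac region. In base pairs 66.2% of H3K27ac lay inside H3K4me1 regions and 28.8% of H3K4me1 inside H3K27ac regions. The shared stretches came to 28.0 Mb of the 111.7 Mb that either mark covered. Over the 4 pairs of single libraries, 77.6% to 90.8% of H3K27ac peaks overlapped an H3K4me1 peak and 26.0% to 42.8% of H3K4me1 peaks an H3K27ac peak. The Jaccard index, the shared length over the joint length, was 0.675 between the H3K27ac libraries and 0.452 between the H3K4me1 libraries, and 0.182 to 0.264 across marks. The order turned when lists of equal size were compared: with the 30000 strongest peaks of each list, 47.6% of H3K27ac regions and 66.0% of H3K4me1 regions overlapped the other mark, and 39.4% and 37.8% of their base pairs were shared.

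The regions also differed in how they fitted together. Of the H3K27ac regions 28.8% touched 2 or more H3K4me1 regions, and 3.20% of the H3K4me1 regions touched 2 or more H3K27ac regions. Wholly inside a region of the other mark lay 33.3% of the H3K27ac regions and 3.94% of the H3K4me1 regions. The longest H3K27ac region ran over 24404 bp at S100a9, the gene of a calprotectin subunit (chr3:90675790-90700193), where H3K27ac covered 23226 and 24404 bp and H3K4me1 8592 and 17822 bp. The longest H3K4me1 region, of 20187 bp, lay inside Ptpre, a receptor type tyrosine phosphatase gene (chr7:135587553-135607739), where H3K27ac covered 15287 and 14946 bp and H3K4me1 17554 and 20187 bp. Other long H3K27ac regions lay at Spi1, which encodes the myeloid transcription factor PU.1 (13076 bp), at Lcp1, the gene of the actin-bundling protein L-plastin (15604 bp), and at Zfp36, the gene of the RNA-destabilizing protein tristetraprolin (12142 bp). Long H3K4me1 regions lay in Mapkapk2, a kinase gene (18941 bp), and in Adgrg1, an adhesion receptor gene of stem cells (17015 bp). In the Adgrg1 region H3K27ac covered 590 and 1171 bp, and H3K4me1 covered 12685 and 16853 bp.

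Stronger regions more often carried the other mark. Strength was ranked within each mark by the smaller of the 2 libraries' highest percentile of −log10 q. Between the weakest and the strongest 10% of regions, the share with the other mark increased from 80.0% to 96.8% for H3K27ac and from 22.8% to 79.4% for H3K4me1. Between the narrowest and the widest 10% it increased from 63.3% to 98.6% for H3K27ac. For H3K4me1 it increased from 21.2% to 77.7% by width. The share within 1 kb of a gene end increased with strength from 10.4% to 81.7% for H3K27ac, against 20.8% and 22.9% for H3K4me1. The separate parts of strength, width and place were not tested. Where a gene end fell inside the region, 91.0% of H3K27ac regions overlapped H3K4me1, against 54.3% of such H3K4me1 regions that overlapped H3K27ac. Over 50 kb from any gene end the shares were 79.0% for H3K27ac and 34.1% for H3K4me1. In base pairs H3K4me1 regions covered 46.5% of the H3K27ac regions that held a gene end and 81.9% of those 10 to 50 kb away, while H3K27ac regions covered 33.7% of the H3K4me1 regions that held a gene end and 27.1% of those 10 to 50 kb away. For H3K27ac the shared base pairs were thus fewest at gene ends, and for H3K4me1 they were not.

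**Figure D1:**
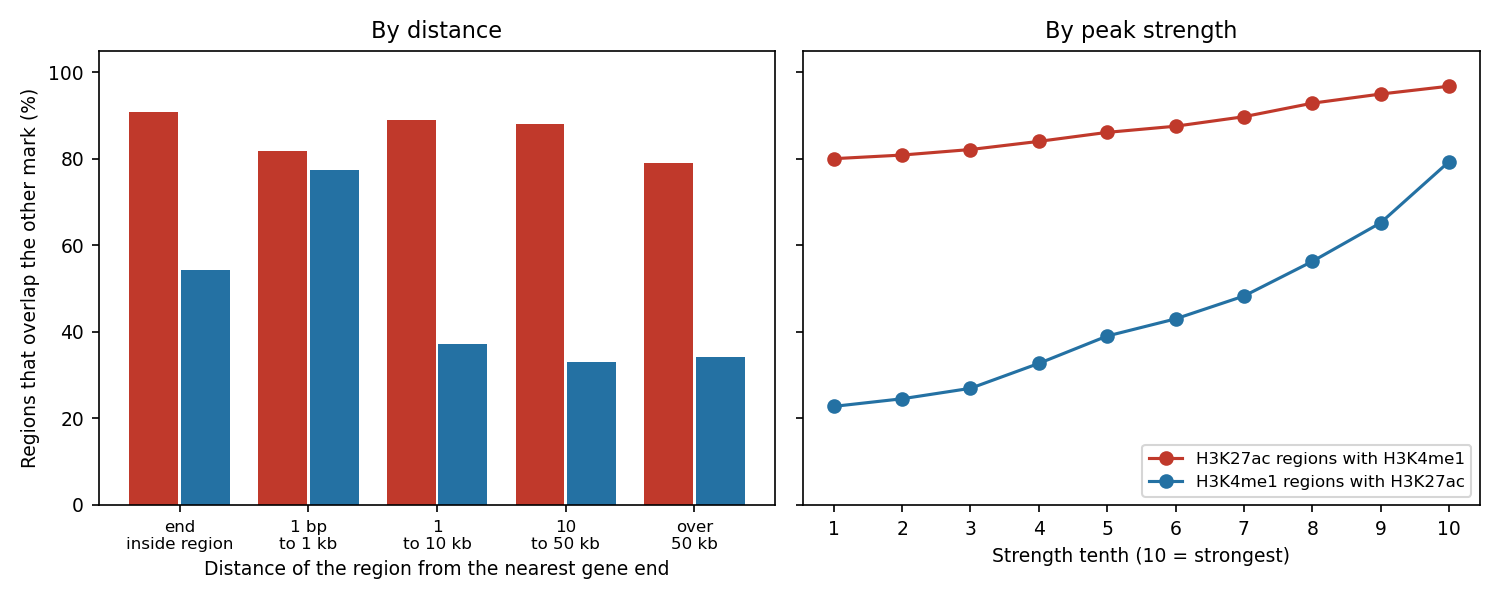
Share of regions (%) that overlap a region of the other mark, for H3K27ac (red) and H3K4me1 (blue), by distance from the nearest gene end (left) and by peak strength within the mark in 10 equal groups (right, 10 strongest). H3K27ac regions stay at 79.0% or above by distance, while H3K4me1 regions reach 77.4% from 1 bp to 1 kb and 33.1% to 37.1% beyond 1 kb.

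At active gene starts H3K4me1 formed 2 shoulders around an H3K27ac centre. Of 21262 gene starts of 17491 genes, 9339 lay under an H3K27ac region. At these the H3K27ac peaks covered 98.9% and 97.4% of positions 100 bp downstream of the start, their highest values. High WT H3K27ac coverage here follows from how the starts were chosen. H3K4me1 peaks covered 6.57% and 10.9% of the starts themselves, 34.7% and 52.9% of positions 1 kb upstream and 50.3% and 70.4% of positions 1 kb downstream. Both H3K4me1 libraries were thus lower at the start than on either side, and higher downstream than upstream. The 2 Tg H3K4me1 libraries, which the choice of regions did not use, covered 4.92% and 9.70% of these starts, 30.2% and 50.9% of positions 1 kb upstream and 43.4% and 66.6% of positions 1 kb downstream. The 2 Tg H3K27ac libraries, likewise not used, covered 79.3% and 92.7% of these starts. They covered 21.5% and 26.0% of positions 1 kb upstream and 30.9% and 38.5% of positions 1 kb downstream. With the 30000 strongest peaks of each list, an alternative added after seeing the data, the WT H3K4me1 values were 3.66% and 6.07% at the start and 22.8% and 35.6% at 1 kb downstream.

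Away from gene ends this gap at the centre was absent or slight. At the middle of the 9489 H3K27ac regions inside genes, H3K4me1 peaks covered 61.8% and 80.4% of positions, against 43.2% and 67.7% at 1 kb to the right. At the middle of the 7042 regions outside genes they covered 51.4% and 72.0%, against 31.0% and 54.7% at 1 kb to the right. At the middle of the 9424 H3K27ac regions within 1 kb of a gene end H3K4me1 covered 16.6% and 24.4%, and 44.0% and 65.8% at 1 kb to the right. No test was made of these profiles, because neighbouring positions of the same regions are not replicates.

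**Figure D2:**
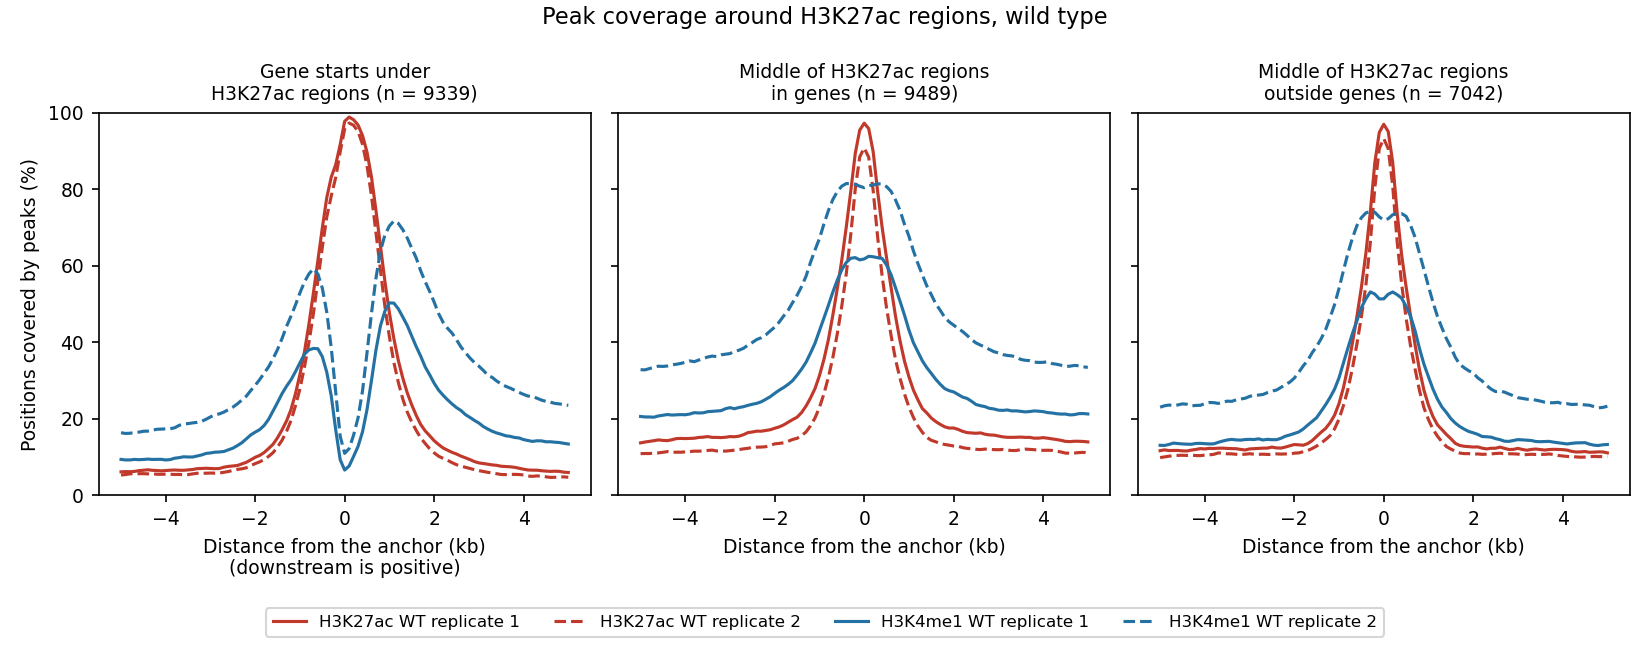
Share of positions (%) covered by peaks of each WT library, H3K27ac in red and H3K4me1 in blue, by distance (kb) from gene starts under H3K27ac regions, from the middle of H3K27ac regions in genes and from the middle of those outside genes. At gene starts both H3K4me1 lines drop to 6.57% and 10.9% between shoulders, whereas in genes they stand at 61.8% and 80.4% at the middle.

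Most starts with H3K27ac had no H3K4me1 on the start base. These starts numbered 8345, and a further 994 had both marks on the start base, 1645 had H3K4me1 without H3K27ac, and 10278 had neither. Of the 8345, 59.8% had H3K4me1 within 1.5 kb on both sides, 22.9% on the downstream side only, 9.99% on the upstream side only and 7.25% on neither. An H3K4me3 peak lay in all 4 libraries at 99.2% of the 8345 starts, 85.8% of those with both marks, 62.4% of those with H3K4me1 without H3K27ac and 15.0% of those with neither. The median number of CpGs in the 300-base window was 23 with H3K27ac without H3K4me1, 8 with both, 14 with H3K4me1 without H3K27ac and 4 with neither, against 13 over all starts. Short motifs were searched for in both strands of the windows. They were GGGCGG for the GC box, CCGGAAG for ETS factors, TATAAA for the TATA box and AGATAA for GATA factors. The others were TGTGGT for RUNX factors, CCAAT for the CCAAT box and CACGTG for the E-box. The ETS motif was found in 24.0% of the windows with H3K27ac without H3K4me1, 7.55% of those with both, 3.59% of those with H3K4me1 without H3K27ac and 11.6% of all windows. The GC box was found in 69.7% of windows with H3K27ac without H3K4me1 and 55.9% of those with H3K4me1 without H3K27ac. With both marks it was found in 42.1%, and over all windows in 46.2%. The TATA box went the other way, with 5.64% of windows with H3K27ac without H3K4me1, 9.67% of those with H3K4me1 without H3K27ac and 12.6% of all. GATA motifs were found in 5.08% of windows with H3K27ac without H3K4me1 and 9.65% of all, and RUNX motifs in 11.3% and 15.0%. In the same order, the CCAAT box was found in 39.1% and 38.2% and the E-box in 11.1% and 7.84%. The GC box, the ETS motif and the E-box each hold a CpG, and the part of CpG content in their shares was not tested. The starts are a description of classes made from these same lists, several starts can belong to 1 gene, and no test was made.

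**Figure D3:**
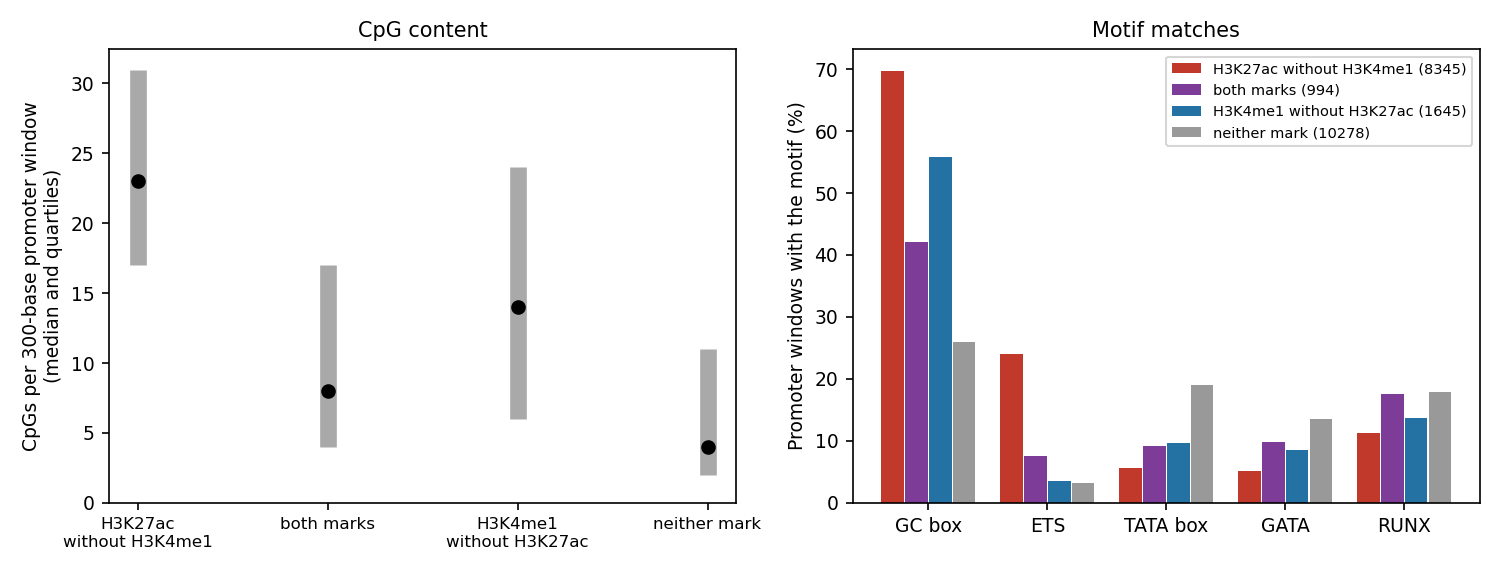
Left, number of CpGs per 300-base promoter window (point for the median, bar for the quartiles). Right, share of windows (%) with the GC box, ETS, TATA box, GATA and RUNX motifs. Gene starts are grouped by the marks on the start base. Starts with H3K27ac without H3K4me1 have the highest median, 23 CpGs, and the highest share of ETS motifs, 24.0%.

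Regions with a single mark differed in place and size. H3K27ac regions that touched no peak of either H3K4me1 library numbered 1391 (5.36%), and H3K4me1 regions that touched no peak of either H3K27ac library numbered 29835 (46.1%). Their median widths were 607 bp for H3K27ac alone and 888 bp for H3K4me1 alone, against 1451 and 1456 bp for the regions of H3K27ac and of H3K4me1 with both marks. Within 1 kb of a gene end lay 23.9% of the regions with H3K27ac alone and 12.5% of those with H3K4me1 alone, and outside genes 52.3% and 30.3%. Inside genes lay 23.8% of the regions with H3K27ac alone and 57.1% of those with H3K4me1 alone. Of all H3K27ac regions 36.3% lay near a gene end, 27.1% outside genes and 36.6% inside. Of all H3K4me1 regions the shares were 24.4%, 27.2% and 48.4%. H3K4me3 lay in all 4 libraries in 48.3% of the regions with H3K27ac alone and in 15.5% of those with H3K4me1 alone. Both were below the shares over all regions of the mark, 64.7% for H3K27ac and 40.6% for H3K4me1. In the Tg libraries, which played no part in the classes, 41.5% of the regions with H3K27ac alone and 55.2% of those with H3K4me1 alone had the same marks in both libraries. With the 30000 strongest peaks of each list the counts were 6126 for H3K27ac alone and 4127 for H3K4me1 alone, so the order of the counts turned. Without H3K27ac replicate 1, H3K27ac replicate 2 or H3K4me1 replicate 2, H3K27ac alone had 2574, 3479 or 3814 regions, and without H3K4me1 replicate 1 or replicate 2, H3K4me1 alone had 86486 or 55605.

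The 5 strongest regions of H3K27ac alone within 1 kb of a gene end and the 5 strongest farther away are named here. At the start of Phf8, an X-linked histone demethylase gene (chrX:151519807-151522296), H3K27ac covered 2465 and 2388 bp and H3K4me1 0 and 0 bp. At Zdhhc17, which encodes a palmitoyltransferase, H3K27ac covered 1697 and 1611 bp and H3K4me1 0 and 0 bp. At Zfp991 (chr4:147131795-147133137) H3K27ac covered 1307 and 1211 bp and H3K4me1 0 and 0 bp. Other such regions were at Eif4enif1 and Erap1 and, away from gene ends, outside genes nearest to Zfp958, Gm52481, Zfp600 and Mid1 and inside Zfp993. The Zfp600, Zfp991 and Zfp993 regions lie in a cluster of similar zinc finger genes on chromosome 4, where reads may map to more than 1 copy. Among the regions of H3K4me1 alone within 1 kb of a gene end, the strongest lay by Rgs14, a regulator of G protein signalling (H3K27ac 0 and 0 bp, H3K4me1 1437 and 1918 bp), and at Fcgr3, the gene of an Fc receptor for IgG (H3K27ac 0 and 0 bp, H3K4me1 3384 and 4345 bp). Farther from gene ends the strongest lay inside Eefsec, which encodes the elongation factor for selenocysteine (H3K27ac 0 and 0 bp, H3K4me1 1610 and 2203 bp), followed by one 11737 bp from Fcgr3 (chr1:171077653-171082605) with H3K27ac 0 and 0 bp and H3K4me1 3886 and 4953 bp. In both Tg H3K27ac libraries the 2 Fcgr3 regions did carry H3K27ac. Others lay at Elfn2, Hspa1b and Sema4b and inside Srpk1, Baiap2 and Gse1.

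On the sex chromosomes H3K27ac more often stood alone. Of 612 H3K27ac regions on X 176 stood alone (28.8%), and of 32 on Y 28 did (87.5%), against 5.36% over all chromosomes. Of the H3K4me1 regions 272 of 655 on X (41.5%) and 0 of 2 on Y stood alone. H3K27ac libraries had 2.19% and 2.35% of their peaks on X, and H3K4me1 libraries 0.935% and 1.67%. Of the regions with H3K27ac alone 12.7% lay on X, against 0.912% of those with H3K4me1 alone. Without chromosomes X and Y, an alternative added after seeing the data, 88.7% of H3K27ac regions overlapped H3K4me1, and 1187 H3K27ac regions stood alone. The Tg libraries, with 2.39% and 2.12% of H3K27ac peaks and 1.26% and 1.85% of H3K4me1 peaks on X, had the same order of the marks. The part of chromosome X in the values of X-linked genes given below was not tested.

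Genes were sorted by the peaks found up to 10 kb from their annotated ends. Of 21883 protein-coding genes 12013 (54.9%) had both marks in both libraries, 103 (0.471%) had H3K27ac only, 1800 (8.23%) had H3K4me1 only, 5669 (25.9%) had neither, and 2298 had a mark in 1 of its 2 libraries. In Tg cells 49 of the 103, 1192 of the 1800, 11329 of the 12013 and 5281 of the 5669 fell in the same class. Of the 103 genes with H3K27ac only, 24 were on chromosome X (23.3%, against 4.41% of all genes), 14 had a Gm symbol (13.6%, against 6.06% of all genes) and 7 a Zfp symbol (6.80%, against 1.81% of all genes). The 7 with the symbol of an odorant or vomeronasal receptor (6.80%) were near the 6.69% of all genes. H3K4me3 was present in all 4 libraries at 73 of the 103 genes (70.9%) and 1338 of the 1800 (74.3%), near the 68.6% of all genes. With the 30000 strongest peaks of each list H3K27ac only held 1841 genes and H3K4me1 only 356. Without H3K27ac replicate 2 or H3K4me1 replicate 2, H3K27ac only held 158 or 468 genes, and without H3K4me1 replicate 1, H3K4me1 only held 2869.

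Among the genes with H3K27ac only, the strongest peaks lay at Zfp984, where H3K27ac covered 2020 and 2152 bp and H3K4me1 0 and 0 bp. Zfp984 (chr4:147753974-147812229) lies near the Zfp991 region named above. Whether reads at Zfp984 map to more than 1 copy was not tested. At Gje1, a connexin family gene, H3K27ac covered 279 and 190 bp and H3K4me1 0 and 0 bp. Fam205a4, Gm20878, Gm21586 and Gm13306 lie in a stretch of near-identical copies on chromosome 4, so their values are uncertain. Fam205a4 and Gm20878 share their peak. H2ac1 and H2bc1, neighbouring histone genes on chromosome 13 known for testis expression, shared 459 and 549 bp of H3K27ac and had 0 and 0 bp of H3K4me1. Among the genes with H3K4me1 only, Notch3, a Notch receptor gene, had 0 and 0 bp of H3K27ac and 4995 and 9322 bp of H3K4me1. Slc26a9, which encodes an epithelial anion transporter, had 0 and 0 bp of H3K27ac and 5311 and 9482 bp of H3K4me1. Ckm, the gene of muscle creatine kinase, had 0 and 0 bp of H3K27ac and 2438 and 3156 bp of H3K4me1. The others named by strength were Elfn2, Ttc39a, Phgr1, B4galnt4 and 1700122O11Rik, with 1374 to 8231 bp of H3K4me1 in their libraries.

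A graded value per gene, the summed peak length in these windows as log2 after adding 500 bp, was compared between marks in limma. Values were quantile normalized, so higher and lower are relative to the other genes of the same mark. Of 14975 genes with a peak in at least 2 of the 4 libraries, H3K27ac was higher at 2864 (19.1%) and lower at 2675 (17.9%) at an adjusted p under 0.05. The median difference over these genes was 0.05 on the log2 scale. Without normalization 171 were higher and 3957 lower with a median difference of −0.68. Without H3K27ac replicate 1 limma called 350 higher and 686 lower, and without H3K27ac replicate 2 it called 0 in either direction with 4269 genes at an unadjusted p under 0.05. In each of the 21 gene lists described below the count was likewise 0 in both directions without H3K27ac replicate 2. Where a mark had no peak, the size of a difference depends on the 500 bp added, and its direction rests on the other mark alone.

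Of the 376 X-linked genes tested 275 were higher and 3 lower, against 2589 higher and 2672 lower of the 14599 others. The median difference was 1.39 on X and 0.03 elsewhere on the log2 scale. Phf6, the X-linked gene altered in the Tg mice, had 2210 and 2064 bp of H3K27ac and 0 and 318 bp of H3K4me1. The log2 difference was 2.57 (SE 0.16, limma adjusted p = 0.00272), and the libraries of the 2 marks did not overlap.

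Among the 8 genes with the largest relative excess of H3K27ac, Tmem45a2, a transmembrane protein gene (chr16:57036967-57071346), had 7264 and 6932 bp of H3K27ac and 0 and 0 bp of H3K4me1, with a log2 difference of 4.15. In Tg it had 0 and 0 bp of either mark. Crlf2, a subunit of the receptor for thymic stromal lymphopoietin, had 7849 and 6914 bp of H3K27ac and 260 and 1103 bp of H3K4me1 (log2 difference 3.74). Il3ra, the alpha chain of the interleukin 3 receptor, had 7872 and 4818 bp of H3K27ac and 0 and 804 bp of H3K4me1 (log2 difference 3.73). Olfm4, which encodes a glycoprotein of a subset of neutrophils, had 3602 and 2795 bp of H3K27ac and 0 and 0 bp of H3K4me1 in WT (log2 difference 3.14) and 0 and 0 bp of either mark in Tg. Vsig4, an X-linked gene of a complement receptor of macrophages, had 7479 and 8463 bp of H3K27ac and 619 and 2599 bp of H3K4me1 (log2 difference 2.95). Gm20783, LOC108167694 and Asmt completed the list, of which the first 2 are neighbours and share peaks. That both H3K27ac libraries were above both H3K4me1 libraries in each of these genes follows from how they were chosen.

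At the other end stood genes with long H3K4me1 stretches and little or no H3K27ac. Pak6, the gene of a p21-activated kinase, had 297 and 363 bp of H3K27ac and 13326 and 18820 bp of H3K4me1, with a log2 difference of −3.59 (SE 0.20, limma adjusted p = 0.00272). Ptprs, a receptor type tyrosine phosphatase gene, had 0 and 0 bp of H3K27ac and 7804 and 13120 bp of H3K4me1 (log2 difference −3.52). Gfi1b had 0 and 0 bp of H3K27ac and 8614 and 11641 bp of H3K4me1 (log2 difference −3.50). Ccr2, the chemokine receptor of inflammatory monocytes, had 0 and 0 bp of H3K27ac and 6333 and 11132 bp of H3K4me1 (log2 difference −3.25). Kcng2, a potassium channel subunit gene, had 0 and 0 bp of H3K27ac and 8024 and 15090 bp of H3K4me1 (log2 difference −3.66). Chrm4, Cntnap1 and Plekhh3 completed the list, of which Cntnap1 and Plekhh3 are neighbours. That both H3K4me1 libraries were above both H3K27ac libraries in each of these genes likewise follows from how they were chosen.

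The sorted cells were checked by their own genes. Kit, which encodes the receptor used for the sort, had both marks, with 2826 and 1948 bp of H3K27ac and 6004 and 9917 bp of H3K4me1. It was relatively lower in H3K27ac (log2 difference −0.82, SE 0.17, limma adjusted p = 0.0193), but with only 1 kb around the gene ends the difference was 0.73 and not called. Myb, a transcription factor gene of progenitors, had 8584 and 7203 bp of H3K27ac and 7590 and 14646 bp of H3K4me1, and Mpo, which encodes myeloperoxidase, had 4698 and 3032 bp of H3K27ac and 5844 and 14476 bp of H3K4me1. Neither passed the test (limma adjusted p = 0.404 and 0.196). Gata2, a transcription factor gene of stem cells, had 0 and 281 bp of H3K27ac and 6196 and 14419 bp of H3K4me1. Genes of mature neutrophils carried long H3K27ac stretches, as the next paragraphs give, and their part in the marks of the sorted cells was not tested.

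Genes of secondary and tertiary neutrophil granules, which are made late in neutrophil maturation, carried long H3K27ac stretches. All 12 had both marks, against 54.9% of all genes. Of the 12, 8 were relatively higher in H3K27ac and 0 lower, against 19.1% and 17.9% of all genes, with a median log2 difference of 1.07. The summed length was 133.6 and 132.7 kb in H3K27ac and 62.0 and 140.3 kb in H3K4me1. Ngp, the gene of a neutrophil granule protein, had 13789 and 12098 bp of H3K27ac and 1789 and 5976 bp of H3K4me1, with a log2 difference of 2.37 (SE 0.26, limma adjusted p = 0.0038). Camp had 10106 and 11109 bp of H3K27ac and 3156 and 7870 bp of H3K4me1 (log2 difference 1.62). S100a8, which encodes a calprotectin subunit, had 18073 and 19534 bp of H3K27ac and 5633 and 13931 bp of H3K4me1 (log2 difference 1.58). For these 3 genes both H3K27ac libraries were above both H3K4me1 libraries. S100a8 and S100a9 are neighbours and share peaks, which enter the summed length for each of them. Without normalization 1 of the 12 was higher, and without H3K27ac replicate 1 or replicate 2 the count was 2 or 0.

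The primary granule genes, which are used earlier at the promyelocyte stage, had 2 of 9 members relatively higher and 2 lower, near the shares over all genes (19.1% and 17.9%), and a median of 0.13. Without H3K27ac replicate 1 none of the 9 was called. Elane, the gene of neutrophil elastase, had 2856 and 2515 bp of H3K27ac and 7969 and 14893 bp of H3K4me1, with a log2 difference of −1.17 (SE 0.18, limma adjusted p = 0.00804). Its neighbour Prtn3, which encodes proteinase 3, shares part of these peaks (log2 difference −1.21). Ctsg, the gene of cathepsin G, had 5834 and 6828 bp of H3K27ac and 1160 and 6595 bp of H3K4me1 (log2 difference 1.63, limma adjusted p = 0.0354). Lyz2, the lysozyme gene of myeloid cells, had 11758 and 12095 bp of H3K27ac and 7236 and 12336 bp of H3K4me1 (log2 difference 0.91).

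Stem and progenitor transcription factor genes were broadly marked by H3K4me1. Of 22, 18 had both marks, against 54.9% of all genes. In H3K27ac 10 of the 22 were relatively lower and 2 higher, against 17.9% and 19.1% of all genes, with a median log2 difference of −0.16. Mecom and Gfi1b, both among the lower, had no H3K27ac peak and could only come out lower. Zfpm1, which encodes the GATA cofactor FOG1, had 1377 and 2034 bp of H3K27ac and 15725 and 22656 bp of H3K4me1, with a log2 difference of −2.57 (SE 0.25, limma adjusted p = 0.00336). Hoxa9, a homeobox gene of stem cells, had 333 and 780 bp of H3K27ac and 5602 and 14553 bp of H3K4me1 (log2 difference −2.55). Gata2 had a log2 difference of −3.11. Tal1, Lmo2, Meis1, Mecom, Gfi1b, Ikzf1 and Cbfa2t3 were lower as well. Myc, a growth regulator, had 2455 and 2179 bp of H3K27ac and 720 and 2067 bp of H3K4me1 (log2 difference 1.45). Bcl11a, which encodes a repressor of fetal globin, had 8840 and 8733 bp of H3K27ac and 3481 and 6525 bp of H3K4me1 (log2 difference 1.46). Runx1, with 7287 and 6897 bp of H3K27ac and 9792 and 11490 bp of H3K4me1, did not pass (limma adjusted p = 0.703). Without H3K27ac replicate 1 or replicate 2, 5 or 0 were lower, and with the 30000 strongest peaks 4 were.

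Of 18 myeloid transcription factor genes 6 were relatively higher and 2 lower, against 19.1% and 17.9% of all genes, with a median of 0.32. Irf8, which was among the lower, had no H3K27ac peak and could only come out lower. The order of the counts did not hold: 1 was higher and 2 lower with the 30000 strongest peaks, 1 higher and 3 lower without normalization, and 0 higher and 1 lower without H3K27ac replicate 1. Cebpd, of the C/EBP family of myeloid factors, had 5768 and 5167 bp of H3K27ac and 838 and 3928 bp of H3K4me1 (log2 difference 1.99, limma adjusted p = 0.00948). Rel, an NF-kB subunit gene, had 4871 and 4089 bp of H3K27ac and 1738 and 3806 bp of H3K4me1 (log2 difference 1.37). Irf8, which directs monocyte and dendritic cell fate, had 0 and 0 bp of H3K27ac and 2752 and 7017 bp of H3K4me1. Its log2 difference of −2.39 thus rests on H3K4me1 and the 500 bp added. Spi1 had 14652 and 13596 bp of H3K27ac and 15813 and 21381 bp of H3K4me1 and did not pass (limma adjusted p = 0.602). Of 18 cytokine and chemokine receptor genes 4 were relatively higher and 5 lower, near the shares over all genes, and without H3K27ac replicate 1 the counts were 1 and 0. Il1rl1, the interleukin 33 receptor, had 1589 and 1371 bp of H3K27ac and 5787 and 11769 bp of H3K4me1 (log2 difference −1.48). Csf2ra, the alpha chain of the GM-CSF receptor, had 4290 and 3848 bp of H3K27ac and 1945 and 3580 bp of H3K4me1 (log2 difference 1.24).

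**Figure D4:**
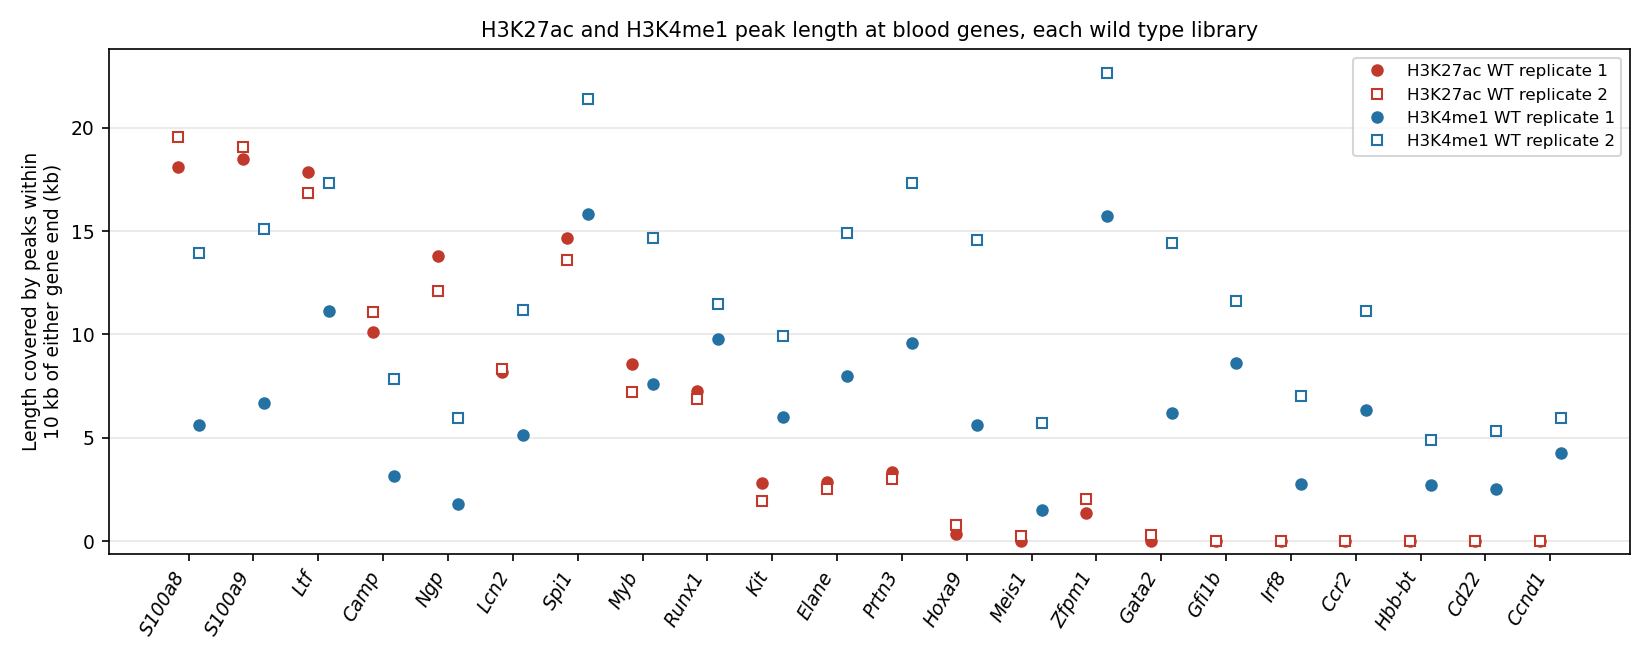
Summed peak length (kb) up to 10 kb from the gene ends in each WT library, H3K27ac in red (left of each gene) and H3K4me1 in blue (right), with replicate 1 filled and replicate 2 open. H3K27ac is longer than H3K4me1 in all libraries at S100a8, Camp and Ngp, while H3K27ac libraries have 0 bp at Gfi1b, Irf8, Ccr2, Hbb-bt, Cd22 and Ccnd1.

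Genes of other blood lineages are described by their marks over all members, to be read against 8.23% of all genes with H3K4me1 only, 54.9% with both marks and 25.9% with neither. Members without an H3K27ac peak entered the test only through H3K4me1 and could only come out lower, so no counts of calls are given for these lists. For such members a log2 difference reflects only the H3K4me1 length and the 500 bp added. Of 20 erythroid genes 10 had H3K4me1 only, 6 both marks and 2 neither, and 10 of the 17 tested had no H3K27ac peak. Hbb-bt, an adult beta globin gene, had 0 and 0 bp of H3K27ac and 2714 and 4903 bp of H3K4me1. Gata1, the erythroid master regulator on chromosome X, had 0 and 0 bp of H3K27ac and 874 and 1318 bp of H3K4me1 and did not pass (limma adjusted p = 0.202). The paralogs Hba-a1 and Hba-a2, and Hbb-bt and Hbb-bs, are near-identical copies whose reads may be split. Of 14 megakaryocyte genes 9 had both marks, 2 H3K4me1 only and 1 neither, with Itga2b, the platelet integrin gene, at 0 and 277 bp of H3K27ac and 2900 and 5997 bp of H3K4me1 (log2 difference −1.99). Of the 12 monocyte and macrophage genes 7 had both marks, 3 H3K4me1 only and 1 neither. Mertk, a receptor for the uptake of dead cells, had 0 and 0 bp of H3K27ac and 2910 and 5078 bp of H3K4me1 (log2 difference −2.20).

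Lymphoid, mast cell and stromal genes are described in the same way. Of 14 B-lymphoid genes 7 had both marks and 3 H3K4me1 only, and Cd22, a B cell receptor regulator, had 0 and 0 bp of H3K27ac and 2534 and 5352 bp of H3K4me1 (log2 difference −2.16). Of 15 T-lymphoid genes 4 had both marks, 3 H3K4me1 only and 3 neither, and Gata3, a T cell transcription factor gene, had 0 and 0 bp of H3K27ac and 2012 and 5148 bp of H3K4me1 (log2 difference −2.01). Of 10 NK cell genes 2 had both marks, 3 H3K4me1 only and 3 neither, and Tbx21, the T-bet gene, had 0 and 0 bp of H3K27ac and 1341 and 3908 bp of H3K4me1 (log2 difference −1.63). Of 12 mast cell and basophil genes 1 had both marks, 1 H3K4me1 only and 3 neither, and at Il4, a type 2 cytokine gene, H3K27ac covered 240 and 0 bp and H3K4me1 4275 and 8018 bp (log2 difference −2.56). Of 14 stroma and endothelium genes 6 had both marks, 4 H3K4me1 only and 2 neither, and Pecam1, an adhesion gene also active in blood cells, had 3128 and 1333 bp of H3K27ac and 13479 and 20107 bp of H3K4me1 (log2 difference −2.11). The T cell genes Cd8a, Cd8b1 and Bcl11b, the NK cell genes Ncr1, Gzma and Gzmb, and the mast cell genes Tpsb2, Fcer1a and Prss34 had 0 bp of either mark in all 4 libraries.

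Developmental regulators that are silent in blood had little or no H3K27ac, and some had H3K4me1. Of 36, 14 had H3K4me1 only, 9 neither mark and 13 a mark in 1 library, and 0 had H3K27ac in both libraries. The only H3K27ac was 424 bp at Nkx2-1 in replicate 2. The summed length was 0 and 0.424 kb in H3K27ac and 12.9 and 53.3 kb in H3K4me1. Pou4f1, of sensory neurons, had 0 and 0 bp of H3K27ac and 1635 and 7215 bp of H3K4me1 (log2 difference −2.14). Neurog2, a proneural gene, had 0 and 0 bp of H3K27ac and 2631 and 3592 bp of H3K4me1 (log2 difference −1.92), and Pax6, of eye and brain, had 0 and 0 bp of H3K27ac and 1348 and 4654 bp of H3K4me1 (log2 difference −1.74). In all, 14 of the 36 passed the filter on peaks in at least 2 libraries, all through H3K4me1 alone, so their direction was fixed by the filter. Of 18 neuronal, muscle and liver genes 4 had H3K4me1 only, 9 neither mark and 0 H3K27ac in any library.

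**Figure D5:**
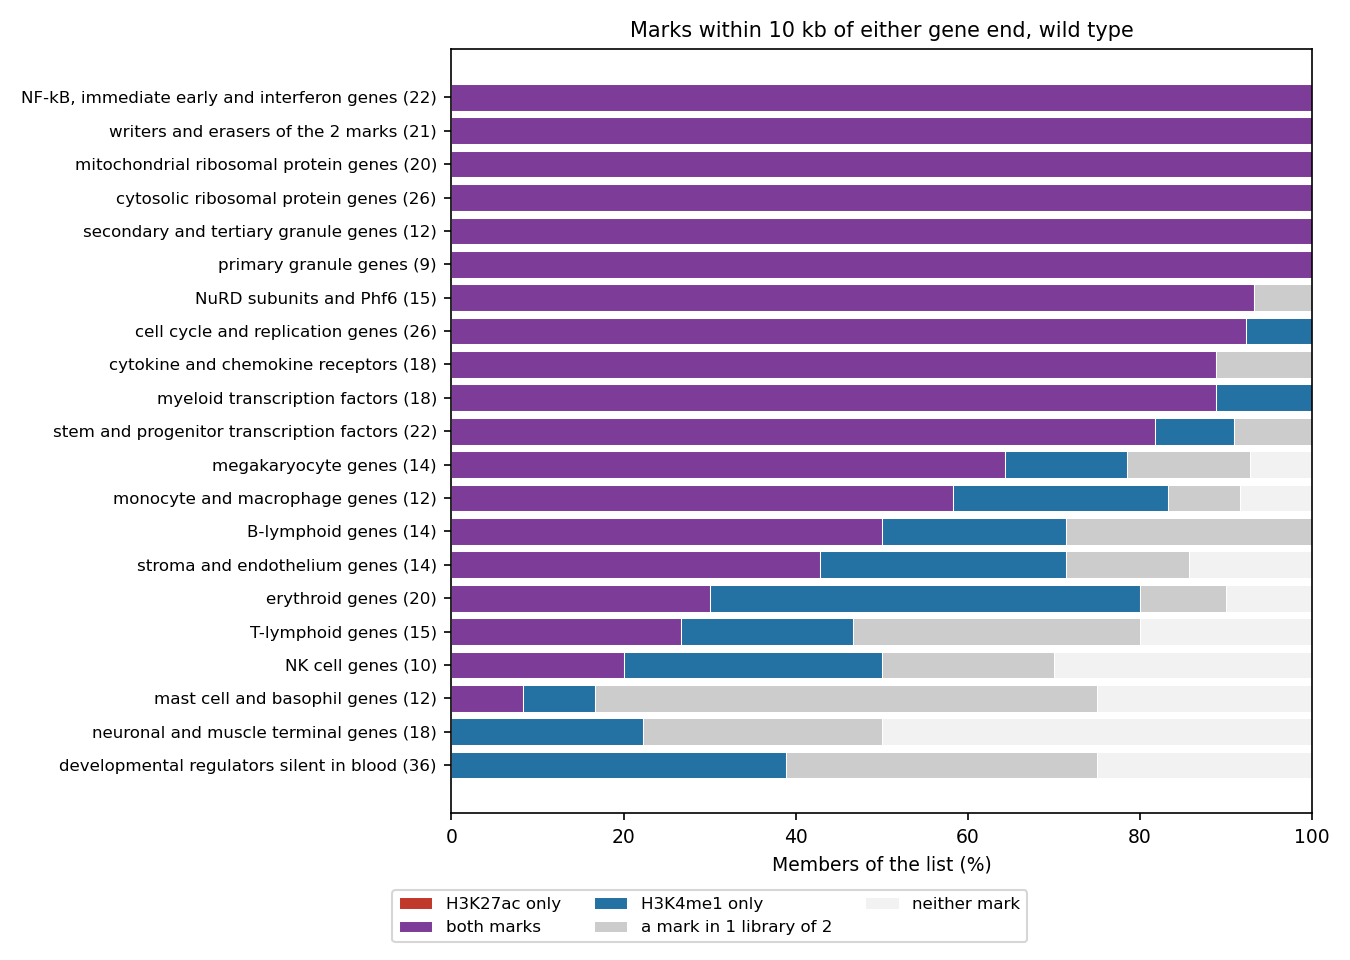
Share of the members of each gene list (%, number of members in parentheses) with H3K27ac only, both marks, H3K4me1 only, a mark in 1 library of 2 or neither mark, up to 10 kb from the gene ends. All 26 cytosolic ribosomal protein genes and all 12 secondary and tertiary granule genes have both marks, and none of the 36 developmental regulators does.

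Ribosomal protein genes and the enzymes that place or remove the marks had both marks at every member examined. All 26 cytosolic ribosomal protein genes, 20 mitochondrial ribosomal protein genes and 21 writers and erasers of the marks had both, against 54.9% of all genes. Of the 26, 7 were relatively higher in H3K27ac and 1 lower, against 19.1% and 17.9% of all genes, with a median of 0.36, and without H3K27ac replicate 1 none was called. Rps6 had 2233 and 1876 bp of H3K27ac and 563 and 2091 bp of H3K4me1 (log2 difference 1.47, limma adjusted p = 0.00959), and Rpl10, which is X-linked, had 4187 and 4145 bp of H3K27ac and 995 and 4709 bp of H3K4me1 (log2 difference 1.43). Of the 20 mitochondrial genes 4 were higher and 2 lower, none of them without H3K27ac replicate 1, and Mrpl3 had 864 and 866 bp of H3K27ac and 282 and 782 bp of H3K4me1 (log2 difference 1.27). Mrpl15 and Mrpl18 were called higher too, but with a window of 1 kb their differences were −0.34 (not called) and −0.68 (called lower). Of the 21 writers and erasers 5 were higher and 1 lower, none of them without H3K27ac replicate 1. Sirt1, a histone deacetylase gene, had 1748 and 1731 bp of H3K27ac and 700 and 1398 bp of H3K4me1 (log2 difference 1.52). Kdm6a, an X-linked demethylase gene, had 3207 and 3407 bp of H3K27ac and 1779 and 2906 bp of H3K4me1 (log2 difference 1.15), and Kdm1a, which removes H3K4me1, had 1271 and 1184 bp of H3K27ac and 2465 and 5117 bp of H3K4me1 (log2 difference −0.56).

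Of 26 cell cycle genes 24 had both marks, against 54.9% of all genes. In H3K27ac 7 of the 26 were relatively higher and 4 lower, near the shares over all genes, with a median of 0.20. Ccnd1 and Cdkn2a, both among the lower, had no H3K27ac peak and could only come out lower. Without H3K27ac replicate 1 the counts were 1 and 1. Mcm4, a subunit of the replicative helicase, had 2312 and 2015 bp of H3K27ac and 307 and 985 bp of H3K4me1 (log2 difference 2.21, limma adjusted p = 0.00272). Cdk1, the mitotic kinase gene, had 3024 and 2892 bp of H3K27ac and 1416 and 2113 bp of H3K4me1 (log2 difference 1.35). Ccnd1, the cyclin D1 gene, had 0 and 0 bp of H3K27ac and 4275 and 5957 bp of H3K4me1 (log2 difference −2.54), and Ccnd2, the cyclin D2 gene, had 981 and 2012 bp of H3K27ac and 7008 and 10912 bp of H3K4me1 (log2 difference −1.58). Ccnd3, the cyclin D3 gene, had 14512 and 12089 bp of H3K27ac and 15277 and 22515 bp of H3K4me1 and did not pass (limma adjusted p = 0.929).

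Among inflammatory and immediate early genes all 22 had both marks, and 3 were relatively higher and 2 lower, none of them without H3K27ac replicate 1. Over all genes 54.9% had both marks, and 19.1% of those tested were higher and 17.9% lower. Zfp36 had 14595 and 14406 bp of H3K27ac and 9496 and 11869 bp of H3K4me1 (log2 difference 1.0, limma adjusted p = 0.013). Nfkb1, the gene of the p105 and p50 NF-kB subunits, had 5217 and 3224 bp of H3K27ac and 11662 and 15423 bp of H3K4me1 (log2 difference −0.93). Of the 15 genes of the NuRD chromatin remodelling complex and Phf6, which can bind it, 3 were higher and 4 lower, and without H3K27ac replicate 1 the counts were 2 and 2. These counts also stand against the 19.1% higher and 17.9% lower over all genes tested. Rbbp7, an X-linked histone-binding subunit gene, had 2613 and 2542 bp of H3K27ac and 413 and 1171 bp of H3K4me1 (log2 difference 2.33, limma adjusted p = 0.00272). The others called higher were Phf6 and Cdk2ap1. Mta3 had 1609 and 2070 bp of H3K27ac and 10055 and 12171 bp of H3K4me1 (log2 difference −1.63), and Mta1, its paralog, had 1372 and 1305 bp of H3K27ac and 6733 and 10026 bp of H3K4me1 (log2 difference −1.56). Chd3, a remodeller ATPase gene, had 1349 and 1387 bp of H3K27ac and 7058 and 11134 bp of H3K4me1 (log2 difference −1.65), and with a window of 1 kb its difference was 0.63 and not called.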

How the data were processed

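Per the labels' protocols, crosslinked chromatin was precipitated with a Diagenode kit and sequenced single-end. Per the submitters' processing notes, the tools were MACS2, Bowtie2, SAMtools, deepTools, Trim Galore and FastQC and the build mm10; versions, settings and any control library are not given in the sources used here. The authors deposited 1 narrowPeak list per library, whose columns hold a score, a fold enrichment ratio, a −log10 p-value and a −log10 q-value. These depend on depth, which is unknown, so they were only used to rank and filter peaks within a list.

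Genes, gene ends and promoter windows came from RefSeq tables of GRCm38.p6, in which 21883 protein-coding genes had a unique symbol and 17491 a promoter entry. The 4 lists were compared as regions (at least 1 bp shared), per library by two-sided exact permutation tests, and per gene by limma 3.58.1 (R 4.3.3), with log2(bp + 500), quantile normalization, genes with a peak in at least 2 of 4 lists and Benjamini-Hochberg adjustment at 0.05. Every adjusted p is limma's. Python 3.11.15, numpy 2.4.6 and pandas 2.3.3 were used otherwise. Simulated data held 50 genes at each size and direction of change (3 or 4 on the log2 scale). Of these 68% to 92% were recovered, and 2 of 14773 unchanged genes were called. In the real lists far more genes were called, and many differences were smaller. The simulation thus does not measure recovery or false calls in the real lists.

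The members and gene lists were chosen with earlier results of these data known. Genes are named as the 8 of largest change in each direction whose libraries do not overlap, the 8 of strongest peaks among genes with 1 mark, up to 4 of largest difference per list, and Kit and Phf6. Regions are the 5 strongest per class. Other genes given with values (Runx1, Spi1, Myb, Mpo, Gata1, Ccnd3, Myc, Bcl11a, Mta1, Kdm1a, Nkx2-1, Pax5, Vpreb1 and Igll1), genes only listed by their call or at 0, the longest regions and the printed promoters were chosen after their values were seen. Peak names within the H3K4me3 lists name the other genotype than the labels do, so H3K4me3 was used only as presence in all 4 libraries. Alternatives were a stricter −log10 q of 5, the 30000 strongest peaks, 50% overlap, bridging 500 bp, a peak in either library, other windows, normalizations and pseudocounts of 100 and 1000 bp, leaving out each library, and a replicate block.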

Additional observations from a re-analysis of the deposited data

How the results depend on the processing

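The share of H3K27ac regions overlapping H3K4me1 was 72.5% at a −log10 q of at least 5, 47.6% with the 30000 strongest peaks, 64.5% with 50% of the region covered, 89.4% with peaks up to 500 bp apart merged, 90.7% with a peak in either library, and 82.1% to 93.9% with 1 library left out. The H3K27ac base pairs inside H3K4me1 were 53.8%, 39.4%, 73.1% and 72.5% at the stricter q, with the strongest peaks, with merging and with either library, and 51.0% to 68.7% with 1 library left out. The share of H3K4me1 regions overlapping H3K27ac was 51.3% at the stricter q, 66.0% with the strongest peaks, 23.2% with 50% covered, 32.6% with either library and 26.7% to 52.4% with 1 library left out, and the H3K4me1 base pairs inside H3K27ac came to 37.8% with the strongest peaks. Regions of H3K27ac alone numbered 6126 with the strongest peaks, 7249 with 50% covered, 3972 with either library and 1589 to 3814 with 1 library left out. Those of H3K4me1 alone numbered 13730 at the stricter q, 4127 with the strongest peaks, 47553 with 50% covered, 89865 with either library and 30819 to 86486 with 1 library left out. Genes with H3K27ac only numbered 255 within 1 kb, 241 at the stricter q, 1841 with the strongest peaks and 120 to 468 with 1 library left out, and genes with H3K4me1 only 1071 at the stricter q, 356 with the strongest peaks and 1873 to 2869 with 1 library left out. In limma the genes higher in H3K27ac numbered 171 without normalization, 831 without a filter, 1534 at the stricter q, 1297 with the strongest peaks and 0 to 2420 with 1 library left out. The genes lower numbered 1117 without a filter, 1519 with the strongest peaks and 0 to 1977 with 1 library left out. The median peak width difference reversed to −199.5 bp with the strongest peaks. The direction of peak number, covered length and share near gene ends held under every alternative run, where the strongest peaks give no peak number of their own. Of the named genes, Chd3 (0.63), Kit (0.73), Mrpl15 (−0.34) and Mrpl18 (−0.68) reversed with a window of 1 kb and Rag1 (−0.000482) with the strongest peaks. The cause of these changes was not tested.

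The replicate numbers were not treated as pairs. The deviations of same-numbered libraries correlated at −0.07 over 14975 genes. This value cannot tell whether same-numbered libraries came from the same animal or batch. With the number as a replicate block, 2824 genes were higher and 2679 lower, against 2864 and 2675. Of 97 named genes 95 stayed on their side of the threshold with this block. Other alternatives took more calls away. Without the filter on genes 54 of the 97 lost their call and 1 gained it, and without normalization 25 lost it and 4 gained it. With the 30000 strongest peaks 21 lost it and 1 gained it. Leaving out an H3K27ac library also took calls away, as given above. For the named genes, leaving out H3K27ac replicate 2 took away more calls than any other alternative.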

Other observations

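Rag1 and Rag2 are neighbouring recombinase genes of lymphoid cells whose windows overlap and hold the same strongest H3K27ac peak. Rag1 had 771 and 672 bp of H3K27ac and 307 and 457 bp of H3K4me1 (log2 difference 1.24, limma adjusted p = 0.00778). Rag2 had 1078 and 943 bp of H3K27ac and 3852 and 8195 bp of H3K4me1 (log2 difference −1.35, limma adjusted p = 0.00566). Neither gene was called with the 30000 strongest peaks, where the difference at Rag1 was −0.000482, or without either H3K27ac library. Of the 11 B-lymphoid genes tested, Vpreb1 and Igll1, the surrogate light chain genes of early B cells, had both marks in all libraries, with 3412 and 3646 bp of H3K27ac and 5018 and 8258 bp of H3K4me1 at Vpreb1, and 4473 and 4137 bp of H3K27ac and 6363 and 11725 bp of H3K4me1 at Igll1. Both were chosen after their values were seen. Pax5, a B cell commitment factor, had 0 and 0 bp of H3K27ac and 411 and 2342 bp of H3K4me1.

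The 5 strongest H3K4me1 regions away from gene ends with both marks all lay on chromosome 6 beside Gm40367 and Gm40363, were 648 to 1095 bp wide and held 288 to 567 bp of H3K27ac in each library. They had peaks in every H3K4me3 library as well, and whether they come from repeated sequence was not tested.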
